A study of Danio rerio with 8 samples.

Results

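The genes phlda2, socs3a and ace were examined in 646 pnp4a-positive skin cells of adult zebrafish, in the 5 clusters c1 to c5 into which the authors had sorted the cells. They are 3 of the 19914 genes in the deposited table and were picked by their symbols, with earlier results on cluster c5 known, because their transcripts were more abundant there than in the other clusters. Their levels across clusters are therefore given as a description, with no test. The cells were taken from the flank dermis of untreated fish carrying pnp4a:palmmCherry and pnp4a:nlsEos, membrane and nuclear reporters driven by regulatory sequence of pnp4a, a purine nucleoside phosphorylase gene of iridophores. Stripe and interstripe skin was dissected, dissociated and sorted apart for both reporters. This gave 8 libraries, 4 labelled dark and 4 labelled light for the stripe pattern, from skin in which several fish were combined. The sort selected cells with an active pnp4a promoter, so cells without it were not sampled. By the study's account c5 held mostly cells of stripe skin, c3 mostly cells of interstripe skin, and c1 cells of both. The tables pool the libraries, so origin was not checked here, a cluster is 1 pooled sample, and the SDs below describe cells and say nothing of the spread from fish to fish.

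Iridophores reflect light from stacks of guanine crystals, and those of stripes and interstripes differ in how the crystals are arranged. phlda2 encodes a small protein that is little more than a pleckstrin homology domain, a fold that binds membrane phosphoinositides. In mammals the gene is imprinted and restrains growth of the placenta. socs3a is one of the zebrafish copies of SOCS3, a feedback inhibitor that cytokine receptors of the gp130 family induce through STAT3 and that blocks the receptor and its JAK kinases. ace encodes angiotensin-converting enzyme, a membrane peptidase that makes angiotensin II and breaks down bradykinin, best known from the surface of blood vessel endothelium.

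Cluster c5 held 72 cells, c1 194, c2 176, c3 122 and c4 82. The study called c1, c3 and c5 iridophores. All 5 iridophore markers examined, among them gpnmb and pnp4a, were found in c5, with a summed mean of 8.32, against 9.40 in c1 and 10.0 in c3, and each of the 5 was lower in c5 than in c3. These sums were 5.03 in c2 and 6.42 in c4. Even so, each of the 5 markers was found in a larger share of c4 cells than of c5 cells. pnp4a was found in 98.8% of c4 cells and 79.2% of c5 cells, and gpnmb in 97.6% of c4 cells and 88.9% of c5 cells. Cells of c4 had 1395 genes detected on average, against 739.6 to 846.1 in the other clusters. These numbers are the shares of cells summed over all genes. Over genes found in 10% or more of the cells of a cluster, the median level in expressing cells was 1.31 in c4. It was 1.80 to 2.58 in the other clusters. The levels are of depth-corrected counts, and how far the correction shaped the shares of c4 was not tested. Total counts per cell were not used here.

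phlda2 (ENSDARG00000042874) was found in 54 of the 72 cells of c5, 75.0% with an exact Clopper-Pearson 95% interval of 63.4 to 84.5%. The share was 51.5% in c1 (44.3 to 58.8%), 60.2% in c2 (52.6 to 67.5%), 32.0% in c3 (23.8 to 41.0%) and 91.5% in c4 (83.2 to 96.5%). These intervals cover counting error only, here and below. The authors had grouped the cells by their transcript counts, and phlda2, socs3a and ace were picked for their abundance in c5. Intervals of different clusters could therefore lie apart by construction. Whether they overlap is given as a description and is no test of a difference, here and below. The share of all genes whose intervals lay apart between clusters was not counted. The interval of c5 lay above those of c1 and c3 and overlapped those of c2 and c4. In the cells that had it, phlda2 reached a mean of 4.35 ± 1.34 in c5 (SD over expressing cells, natural log of the depth-corrected count plus 1), the value of a cell with 76.7 corrected counts. This level was 3.19 ± 1.72 in c1, 1.80 ± 1.39 in c2, 2.43 ± 1.53 in c3 and 1.62 ± 0.98 in c4. Thus phlda2 was both more widespread and more abundant per expressing cell in c5 than in c1 and c3, whereas in c4 more cells had it and its level was lower than in c5. Of 1317 genes found in 10% or more of c5 and of c4 cells, 93.2% had the higher level in c5.

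socs3a (ENSDARG00000025428) was found in 48 of the 72 cells of c5, 66.7% (54.6 to 77.3%). It was found in 37.6% of c1 cells (30.8 to 44.9%), 44.9% of c2 cells (37.4 to 52.6%), 32.0% of c3 cells (23.8 to 41.0%) and 79.3% of c4 cells (68.9 to 87.4%). The interval of c5 lay above those of c1, c2 and c3 and overlapped that of c4, and the intervals of c1, c2 and c3 overlapped one another. The level over expressing cells was 3.61 ± 1.34 in c5, 2.81 ± 1.38 in c1, 1.68 ± 1.29 in c2, 2.62 ± 1.29 in c3 and 1.24 ± 0.71 in c4. The SDs of c5 and c3 around these levels were alike, and the range of 1 SD about the mean of c5 overlapped that of c3.

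ace (ENSDARG00000079166) was found in 42 of the 72 cells of c5, 58.3% (46.1 to 69.8%). It was found in 29.4% of c1 cells (23.1 to 36.3%), 18.8% of c2 cells (13.3 to 25.3%), 17.2% of c3 cells (11.0 to 25.1%) and 59.8% of c4 cells (48.3 to 70.4%). The interval of c5 lay above those of c1, c2 and c3. Unlike the shares, the levels of ace over expressing cells were close in c5, c1 and c3, at 2.43 ± 0.99 in c5, 2.35 ± 1.07 in c1 and 2.18 ± 1.36 in c3. They were 1.09 ± 0.93 in c2 and 1.09 ± 0.69 in c4. Against c1 and c3, c5 differed for ace mainly in the share of cells in which the transcript was detected. Against c4 it differed in level and not in share, and against c2 in both. Of 807 genes found in 10% or more of c5 and of c2 cells, 86.7% had the higher level in c5. The median difference in level over these genes was 0.957, against 1.34 for ace. Of 1596 genes found that often in c5 or c2, 69.0% had the larger share in c5. Their median difference in share was 5.11 points, against 39.6 points for ace. A higher level in c5 than in c2 was thus not particular to ace.

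**Figure D1:**
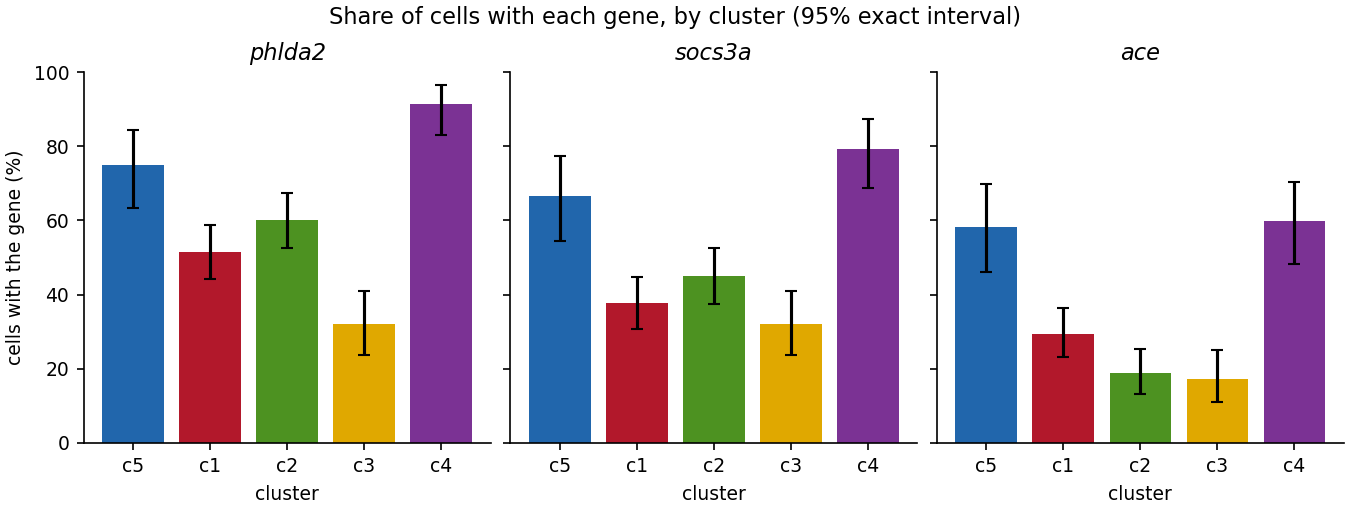
Share of cells with phlda2, socs3a and ace (y axis, percent) in clusters c5, c1, c2, c3 and c4 (x axis), with bars for the share and whiskers for its exact 95% interval. For all 3 genes the bar of c5 stands above those of c1, c2 and c3, and c4 is as high or higher.

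**Figure D2:**
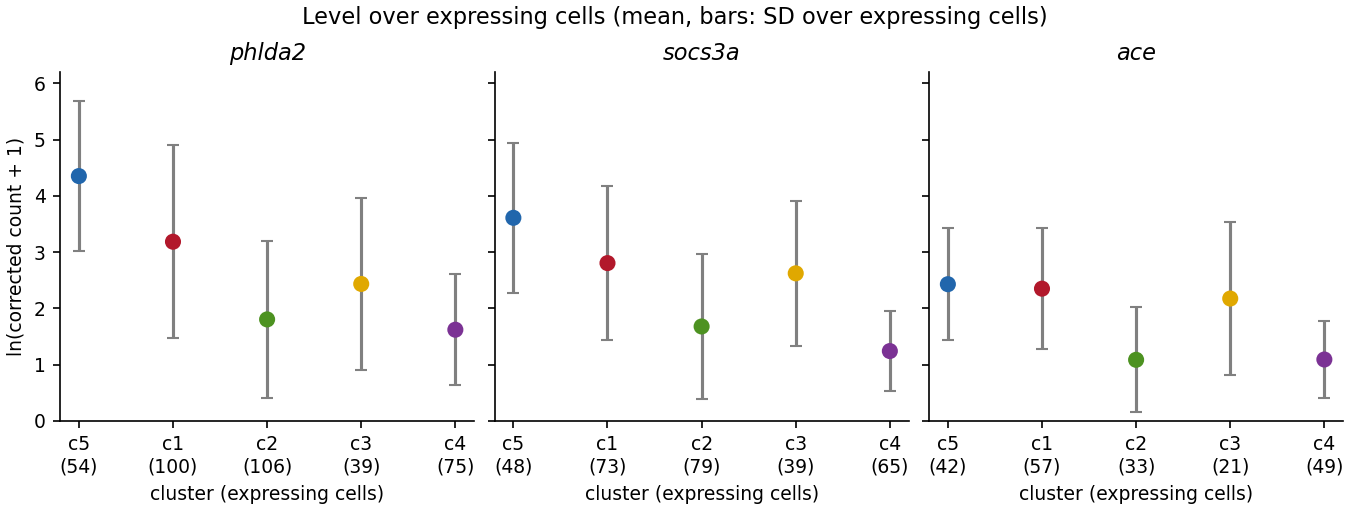
Mean natural log of the corrected count plus 1 over expressing cells (y axis) for the same genes and clusters (x axis, number of expressing cells in brackets), with whiskers of 1 SD over those cells. The level of c5 is the highest for phlda2 (4.35) and socs3a (3.61) and close to those of c1 and c3 for ace (2.43).

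With cells lacking a gene set to 0, means over all cells gave another order of clusters than the shares. For phlda2 the mean was 3.27 ± 2.22 in c5 (SD over cells), 1.64 ± 2.01 in c1, 1.48 ± 1.04 in c4, 1.09 ± 1.40 in c2 and 0.78 ± 1.43 in c3. For socs3a it was 2.41 ± 2.03 in c5, 1.06 ± 1.60 in c1, 0.98 ± 0.81 in c4, 0.84 ± 1.42 in c3 and 0.75 ± 1.199 in c2. For ace it was 1.42 ± 1.42 in c5, 0.69 ± 1.22 in c1, 0.65 ± 0.76 in c4, 0.37 ± 0.99 in c3 and 0.20 ± 0.58 in c2. Neighbours in each of these orders, c5 and c1 included, differed by less than 1 SD over cells. Cluster c5 held 11.1% of all cells and 14.4% of the cells with phlda2, 15.8% of those with socs3a and 20.8% of those with ace. This was not particular to c5. Cluster c4, with 82 of the 646 cells, held 75 of the 374 cells with phlda2. It also held 65 of the 304 cells with socs3a and 49 of the 202 with ace. In c5 these counts were 54, 48 and 42.

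The difference of means between c5 and c3 was 2.49 for phlda2, 1.57 for socs3a and 1.04 for ace. Among all 19914 genes these differences ranked 1, 5 and 17. socs3a stood between fhl2a (1.59) and jdp2b (1.51), and ace between rdh10a (1.07) and junba (1.03). In 1779 genes the share of cells was 10% or more in c5 or c3, and of these 19 were higher in c5 by at least 1 on this scale (1.07%) and 12 were lower by as much (0.675%). That all 3 genes are among the 19 follows from how they were chosen. By the difference in share of cells, phlda2 ranked 1 (43.0 percentage points), ace 2 (41.1) and socs3a 4 (34.7), while the median over the 1779 genes was 1.02 points.

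**Figure D3:**
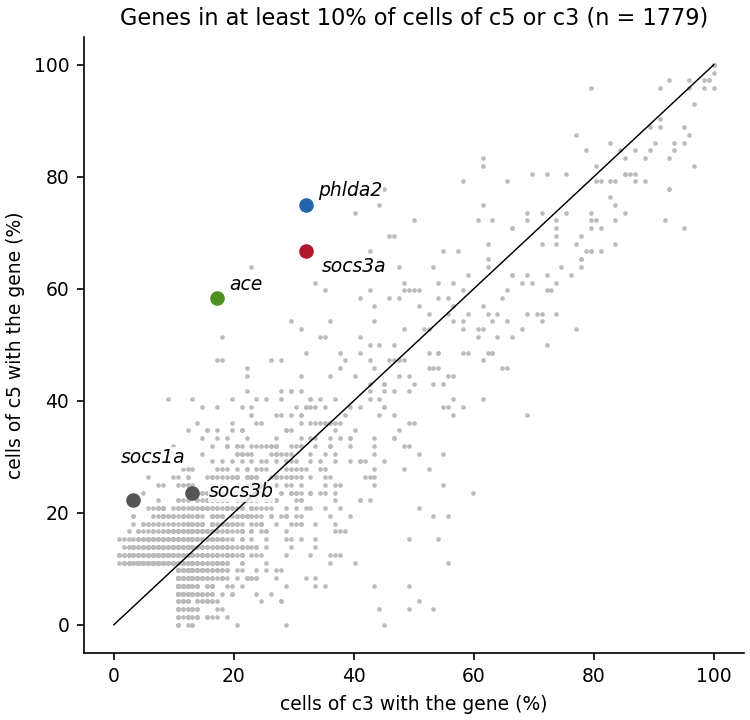
Share of cells with a gene in c5 (y axis, percent) against its share in c3 (x axis, percent) for the 1779 genes whose share was 10% or more in c5 or c3, with the line of equal shares. phlda2 (75.0% in c5, 32.0% in c3), ace (58.3% in c5, 17.2% in c3) and socs3a (66.7% in c5, 32.0% in c3) lie at the upper left edge of the genes, and socs3b and socs1a lie nearer the line.

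A difference of means can come from more cells in which the gene was detected or from a higher level in the cells where it was detected. A transcript can be missed in a cell that has it, so the parts describe detection and not which cells have the gene. Splitting each difference exactly into these parts, 58.7% of that of phlda2 between c5 and c3 came from the share of cells and 41.3% from the level of expressing cells. For socs3a 69.0% came from the share and 31.0% from the level. For ace 90.8% came from the share and 9.24% from the level, whose own difference was 0.26. In the other 16 of the 19 genes the part from the share was between 13.4% (fhl2a, a LIM domain gene) and 82.6% (rdh10a, a retinol dehydrogenase gene), with a median of 66.8%. The part of ace was thus the largest of the 19. A share that is high in c3 has little room to rise, and fhl2a was found in 92.6% of c3 cells, against 17.2% for ace. The order of these parts therefore depends on the share in c3 as well.

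Against c1, which held cells of both skin bands, the differences of c5 were 1.62 for phlda2, 1.35 for socs3a and 0.73 for ace. Of 1706 genes with a share of 10% or more in c5 or c1, 10 were higher in c5 by at least 1 (0.586%) and 0 were lower by as much. phlda2 and socs3a were 2 of these 10 and ace was not. As the genes were chosen for their abundance in c5, nothing can be read from that place among the 10. Of the 1706 genes, 63.1% had the larger share of cells in c5, and the median difference in share was 2.23 points. The part of the differences of phlda2, socs3a and ace that came from the share of cells was 54.5%, 68.9% and 95.2%, near the values for c3.

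**Figure D4:**
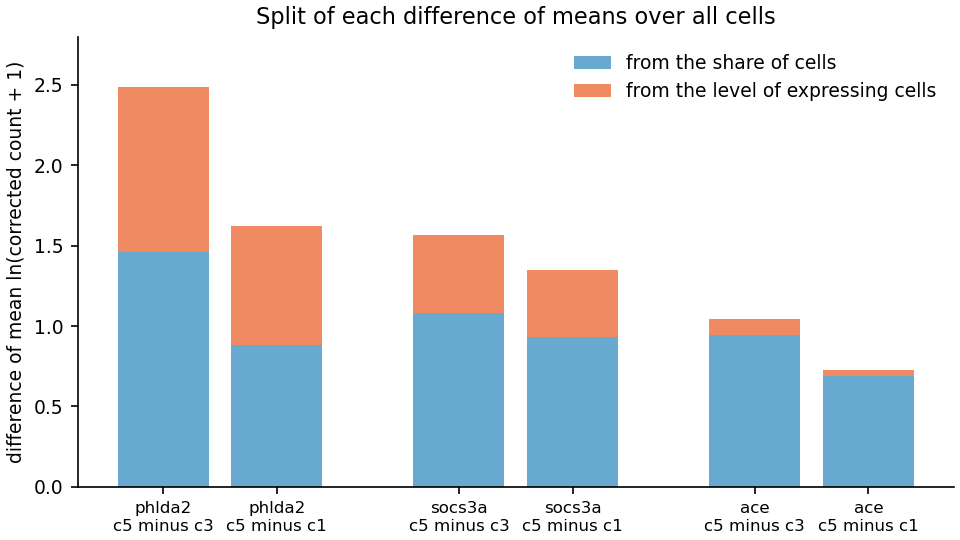
Difference of mean natural log of the corrected count plus 1 (y axis) between c5 and c3 and between c5 and c1 for each gene (x axis), split into the part from the share of cells (lower) and the part from the level of expressing cells (upper). The upper part is 1.03 for phlda2 and 0.096 for ace in c5 minus c3.

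Between the clusters set against c5, c1 had more phlda2 than c3. Its share was 19.6 points higher with intervals that did not overlap, its level over expressing cells 0.75 higher, and its mean over all cells 0.86 higher. For ace the mean of c1 was 0.32 above that of c3, and for socs3a 0.22 above it, with overlapping intervals of the shares for both genes. The median of this difference over 1598 genes was -0.028, so more of these were lower in c1 than were higher. The means of fosab and fosb were lower in c1 than in c3. Of the 16 other genes at least 1 higher in c5 than in c3, fosab and fosb included, 9 were higher in c1 than in c3. The 16 were picked using the same c3 values, so little can be read from this count. fosab had means of 5.23 in c5, 2.83 in c1 and 3.01 in c3, whereas fosb had means of 2.97 in c5, 0.79 in c1 and 1.13 in c3.

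Cluster c4 had a share of cells close to that of c5 for ace and larger ones for phlda2 and socs3a, with lower levels for all 3 genes. The share in c5 minus that in c4 was -16.5 points for phlda2, -12.6 points for socs3a and -1.42 points for ace. Of 2506 genes with a share of 10% or more in c5 or c4, 171 had the larger share in c5 (6.82%), and the median difference was -14.8 points. The levels over expressing cells were 2.73, 2.37 and 1.34 higher in c5 than in c4 for phlda2, socs3a and ace, where the median over 1317 genes with that share in both clusters was 1.43. The level of ace thus differed between c5 and c4 by less than the median, and those of phlda2 and socs3a by more. Scaled to 1000 genes detected per cell, the share of cells with ace came to 71.6% in c5 and 42.8% in c4. That with phlda2 came to 92.0% in c5 and 65.5% in c4. The scaling divides a share by the genes detected per cell, 815.0 in c5 and 1395 in c4. It lowers the share of any gene in c4 against c5, so no order of these 2 clusters can be drawn from it.

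Which cells held more than 1 of the genes cannot be read from pooled tables, but the shares set limits. In c5 at least 30 and at most 48 of the 72 cells had both phlda2 and socs3a, at least 24 and at most 42 had both phlda2 and ace, and at least 18 and at most 42 had both socs3a and ace. Between 0 and 42 cells could have had all 3. In c3 the lower limit was 0 for each pair, and at most 39 of the 122 cells had both phlda2 and socs3a. In c4 at least 25 of the 82 cells had all 3 genes.

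The relatives of phlda2 were found in few cells, as most genes were. Of the other pleckstrin homology-like genes, phlda1 had a share of 8.33% in c5 (3.12 to 17.3%) and 1.64% in c3 (0.199 to 5.80%). phlda3, which encodes an inhibitor of AKT in mammals, had a share of 5.56% in c5 (1.53 to 13.6%) and 1.64% in c3 (0.199 to 5.80%). Thus phlda2 was the main member of its family by the number of cells that had it, in c5 as in c3.

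Among the other SOCS genes, socs3b and socs1a were the most frequent in c5. The second copy of SOCS3, socs3b, had a share of 23.6% in c5 (14.4 to 35.1%) and 13.1% in c3 (7.69 to 20.4%), with overlapping intervals, and averaged 0.77 in c5 against 0.37 in c3. socs1a, a copy of the interferon-induced inhibitor SOCS1, was found in 22.2% of c5 cells (13.3 to 33.6%), against 5.67% of c1 cells (2.86 to 9.92%) and 3.28% of c3 cells (0.900 to 8.18%). It averaged 0.71 in c5 against 0.060 in c3, and its interval in c5 lay above those of c1 and c3. In c4 the shares were as large or larger, at 36.6% for socs3b (26.2 to 48.0%) and 23.2% for socs1a (14.6 to 33.8%), with means of 0.36 for socs3b and 0.18 for socs1a, below those of c5. The other SOCS genes measured were rare. socs2, which restrains growth hormone signalling in mammals, was seen in 0 of the 72 c5 cells (3 cells would be 4.17%, and the exact interval reaches 4.99%) and in 3 of the 122 cells of c3. Without socs3a, 0 of 11 SOCS family genes differed between c5 and c3 by 1 or more, 4 were higher in c5 and 7 lower, and the median difference was -0.0057, beside -0.0051 over the 19204 genes with a value in c5 or c3. Of these 19204 genes, 0.0989% were higher in c5 by at least 1, 0.0625% lower by as much, and 44.1% higher at all.

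Genes that act before SOCS3 in JAK-STAT signalling were mostly found in few cells, as most genes were. Of the 19204 genes with a value in c5 or c3, 1779 were found in 10% or more of the cells of either. Of 22 ligand genes listed, 7 were measured, and none was found in more than 2.78% of c5 cells or 3.28% of c3 cells. Of 24 receptor genes measured, cntfr, the receptor for ciliary neurotrophic factor, was the most frequent, in 31.9% of c5 cells and 23.0% of c3 cells, with a mean of 0.79 in c5 against 0.59 in c3. il6st, which encodes gp130, was found in 7 cells of c5 (9.72%) and 4 of c3 (3.28%). Of 13 JAK and STAT genes, stat1a was found in 16.7% of c5 cells and 13.9% of c3 cells, jak1 in 9.72% of c5 cells and 7.38% of c3 cells, stat5a in 6.94% of c5 cells and 9.02% of c3 cells, and stat3 in 4.17% of c5 cells and 3.28% of c3 cells. Of the 13, 8 were higher in c5 and 5 lower, where 44.1% of the 19204 genes with a value were higher in c5. Receptors, JAK and STAT genes and the 10 other inhibitor genes measured had 0 members that differed by 1 or more, with medians of -0.0017, 0.011 and -0.0013. As 0.0989% of all genes with a value were higher in c5 by that much and 0.0625% lower, a count of 0 in lists of this size is near the background.

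Of 21 measured genes known from mammals as targets of STAT3, 17 were higher in c5 and 4 lower, with a median of 0.080. Over the 19204 genes, 44.1% were higher in c5. Of the 21, 9 were found in 10% or more of the cells of c5 or c3. Among the 1779 genes found that often, 53.5% had the larger share of cells in c5. Higher in c5 by at least 1 were 0.0989% of the 19204 genes and 1.07% of the 1779. The genes junbb (2.15 in c5 against 1.07 in c3, as means) and junba (1.91 in c5 and 0.88 in c3) were higher by at least 1, and both are early response genes as well. Below them stood mycb, a Myc gene, averaging 1.22 in c5 against 0.55 in c3, and pim1, a kinase gene, averaging 0.76 in c5 against 0.20 in c3. mcl1a, a survival gene, averaged 1.70 in c5 against 1.22 in c3, and mcl1b averaged 0.84 in c5 against 0.72 in c3.

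The renin-angiotensin genes around ace were mostly found in few cells, as most genes were. Of 15 genes listed, 8 were measured, ace included. Of the 7 others, 2 were found in 10% or more of the cells of c5 or c3. Of all 19204 genes with a value there, 1779 were found that often. lnpep, an aminopeptidase that binds angiotensin IV, was found in 26.4% of c5 cells and 15.6% of c3 cells, averaging 0.65 in c5 against 0.32 in c3. atp6ap2, the prorenin receptor and a subunit linked to the vacuolar ATPase, was found in 12.5% of c5 cells and 18.9% of c3 cells. The angiotensin receptor gene agtr1b was found in 1 cell each of c5 and c3, and enpep, which encodes the peptidase that trims angiotensin II, in 2 cells of c5 and 3 of c3. Of the 7 genes other than ace, 0 differed by 1 or more and the median was -0.015. Over all genes with a value, 0.0989% were higher in c5 by that much and 0.0625% lower. A count of 0 in 7 genes is near that background. Another 15 measured genes encode peptidases that share substrates with ace, or receptors or a precursor of such peptides. None was found in more than 4.17% of c5 cells or 4.10% of c3 cells.

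For phlda2, the pathway looked at was that of PI3K and AKT, whose phosphoinositides pleckstrin homology domains bind. Of 40 genes measured, 0 differed by 1 or more, 12 were higher in c5 and 28 lower, with a median of -0.0060. Over all genes with a value, 0.0989% were higher in c5 by at least 1, 0.0625% lower by as much, and 44.1% higher at all. pik3r3b, a regulatory subunit of PI3K, was found in 8.33% of c5 cells and 23.8% of c3 cells, averaging 0.20 in c5 against 0.55 in c3. irs2b, an adaptor of the insulin receptor, averaged 0.26 in c5 against 0.41 in c3, and ptena, the phosphatase that opposes PI3K, averaged 0.32 in c5 against 0.28 in c3.

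**Figure D5:**
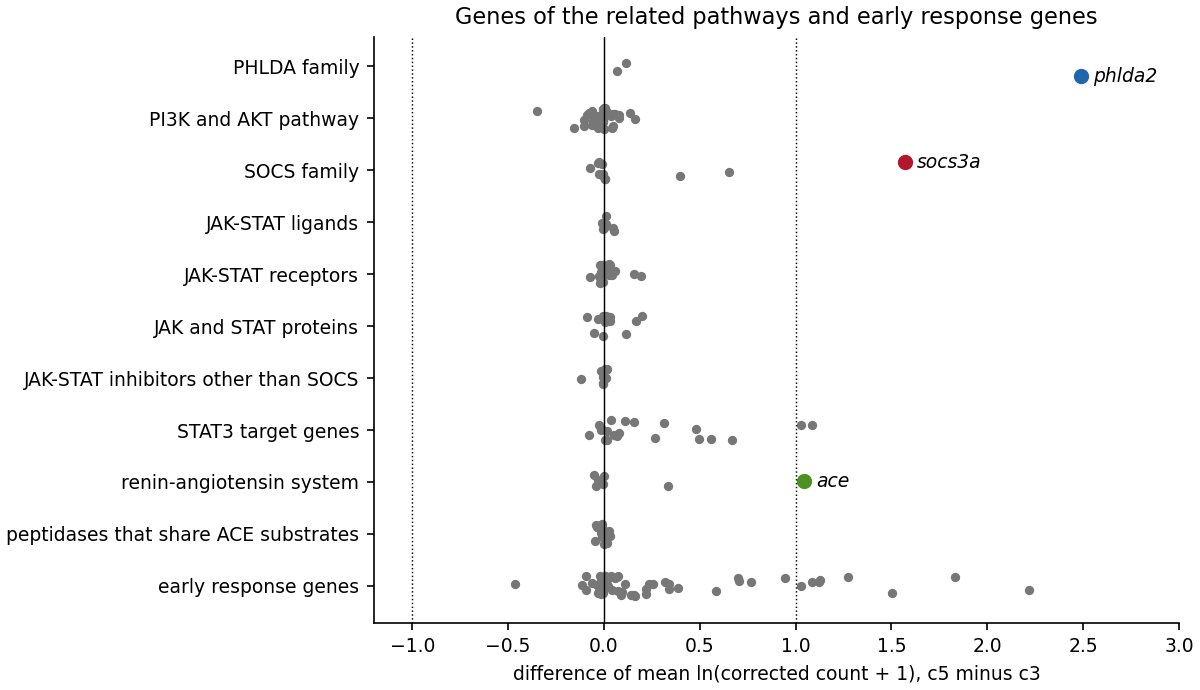
Difference of mean natural log of the corrected count plus 1, c5 minus c3 (x axis), for each measured gene of 11 gene lists (y axis), with dotted lines at -1 and 1 and the genes phlda2, socs3a and ace in colour. Beside the coloured genes, only STAT3 targets and early response genes pass 1, and the other genes of the PHLDA, SOCS and renin-angiotensin lists stay below 0.66.

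Early response genes are those that cells switch on soon after a stimulus, without first making new protein, and enzymatic dissociation of tissue is one such stimulus. Of 57 with a value in c5 or c3, 8 were higher in c5 by at least 1 (fosab, fosb, jdp2b, ier2a, sik1, btg2, junbb and junba) and 0 were lower by as much, 38 were higher and 19 lower, and the median was 0.074. Over all genes with a value 0.0989% were higher by at least 1 and 44.1% higher at all, and the share past 1 was 1.07% among the genes in 10% of cells. The lowest was gadd45ba, a stress response gene, found in 26.4% of c5 cells and 43.4% of c3 cells. SOCS3 itself is an early response gene in many cells. How much of the levels of phlda2, socs3a and ace in c5 goes with this response was not tested.

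Likeness was measured as the Euclidean distance between the shares of cells over the 5 clusters, among 2582 genes in at least 10% of cells of any cluster. The 5 genes nearest to phlda2 were jdp2b, cirbpb (distance 17.3 percentage points), ivns1abpa, btg2 and ppdpfb (22.3). Nearest to socs3a were junba (7.02), calm1a, si:ch73-335l21.4, UBB and pfn2l (14.3), and nearest to ace were gmps (15.4), midn, aqp1a.1, mycb and sik1 (19.1). jdp2b, a partner of Jun proteins, had the same share as phlda2 in c5 (75.0%) but was found in 44.3% of c3 cells, against 32.0% for phlda2. junba, an AP-1 gene, was close to socs3a in every cluster, with 61.1% in c5, 36.6% in c1, 43.8% in c2, 33.6% in c3 and 75.6% in c4. gmps, which encodes GMP synthetase of purine synthesis, was found in 44.4% of c5 cells, 32.5% of c1 cells, 21.6% of c2 cells, 22.1% of c3 cells and 58.5% of c4 cells. The distance was 25.4 points between phlda2 and socs3a, 37.7 between socs3a and ace, and 60.9 between phlda2 and ace, each larger than that to the fifth nearest gene. Each of the 3 thus had nearer neighbours among other genes than among one another. Little can be read from this, since the search ran over 2582 genes. The distance also depends on the share over all cells, 57.9% for phlda2, 47.1% for socs3a and 31.3% for ace.

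Markers of other cell types were compared between the clusters. The summed mean of dermal fibroblast markers was 0.41 in c5, 0.58 in c1, 1.35 in c2, 0.95 in c3 and 2.14 in c4. Most of the gap between c5 and c3 came from col5a1, averaging 0.20 in c5 against 0.61 in c3. Xanthophore markers summed to 0.52 in c5, 0.71 in c1, 2.17 in c2, 0.94 in c3 and 1.96 in c4. Here the gap between c5 and c3 came from pax7a, averaging 0.16 in c5 against 0.60 in c3. Melanophore markers summed to 0.12 in c5, 0.24 in c1, 0.35 in c2, 0.37 in c3 and 0.30 in c4. Keratinocyte markers summed to 2.37 in c5 and 2.03 in c3. Most of this came from icn, found in 72.2% of c5 cells and 73.8% of c3 cells. Of 13 endothelial markers measured, 0 reached 10% of the cells of any cluster. The most frequent in c5 was pecam1 (8.33%), kdrl was found in 2.78% and cdh5 in 5.56% of c5 cells, and aplnra was at 0 in c5. For this gene and those at 0 in c5 below, 3 cells would be 4.17%, and the exact interval reaches 4.99%. Of all 19914 genes, 15031 had a value in c5, so a count of 0 there is common. The summed mean of the endothelial markers was 0.32 in c5, 0.34 in c1, 0.55 in c2, 0.20 in c3 and 0.90 in c4. Of 12 immune markers, coro1a was found in 13.9% of c5 cells and 7.38% of c3 cells, and ptprc, spi1b, marco, mfap4 and rac2 were at 0 in c5. Their summed mean was 0.51 in c5, 0.38 in c1, 0.92 in c2, 0.35 in c3 and 0.96 in c4. Of 6 Schwann cell and crest markers, mpz, a myelin protein gene, was found in 12 cells of c5 (16.7%) and 3 of c3 (2.46%), averaging 0.42 in c5 against 0.017 in c3. In c4 mpz was found in 12.2% of cells. foxd3 was found in 16.7% of c5 cells, 11.5% of c3 cells and 26.8% of c4 cells, and mbpa was at 0 in c5. Of the 6 genes, 3 were higher in c5 than in c3 and 3 lower, with a median of 0.0031. Of all genes with a value, 44.1% were higher in c5. The list summed to a mean of 0.88 in c5, 0.43 in c1, 0.35 in c2, 0.42 in c3 and 0.77 in c4. Their part in the levels of phlda2, socs3a and ace was not tested.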

How the data were processed

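The study measured single cells of stripe and interstripe skin by sequencing with unique molecular identifiers. Per the paper's methods and the labels, the authors trimmed reads with Cutadapt, aligned and counted them by strand with STAR on GRCz11, filtered cells, removed mitochondrial genes and spike-ins, corrected counts with SCTransform, and clustered cells in Seurat. The deposited table gives for each cluster its size in cells, the percent in which a gene was seen, and the mean and SD over expressing cells in natural log of the corrected count plus 1. A second deposited table holds the authors' own fold changes and p-values between c5 and c3 and was not used.

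From the percent, mean and SD, means over all cells were rebuilt with Python 3.11.15 (pandas 2.3.3, SciPy 1.17.1), tested on simulated data. A difference of means from c5 to another cluster was split into the difference of shares times the mean level and the difference of levels times the mean share. Shares carry 95% intervals by the exact Clopper-Pearson method, and beside a count of 0 stands the share that 3 cells would make. No test was made, since libraries are pooled and cells are not replicates. Gene identifiers matched the reference names for 18929 of 19914 features. The order of genes in the RefSeq annotation of GRCz12tu served only to name neighbouring and overlapping genes, and sequences were not used here.

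The members and lists were chosen with earlier results of these data known. One gene of these lists is not reported here. Named are the members and their families, of each list the genes that differ by 1 and up to 4 of the most frequent ones, and the 5 genes most like each member. Genes named beyond this rule, such as il6st, stat3, agtr1b, enpep, gadd45ba and the nearest genes in rank, were chosen after their values were seen. Alternatives changed the cells averaged, the cluster set against c5, the scaling by genes detected, the interval, the filter on share, the size of difference and the measure of likeness.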

Additional observations from a re-analysis of the deposited data

How the results depend on the processing

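The differences of phlda2, socs3a and ace between c5 and c3 kept their sign under every alternative run. That follows from how they were chosen, as genes more abundant in c5. Of all alternatives run, 16 moved their value beyond the margin set for it and 12 did not. Cluster c4 was not among the alternatives, and its shares differed the other way (-16.5, -12.6 and -1.42 points). Over expressing cells only, the differences of mean were 1.92 for phlda2, 0.99 for socs3a and 0.26 for ace, by construction, since the share of cells is left out. Against c1 the difference of mean was 1.62 for phlda2 and 0.73 for ace, and that of the share was 23.5 points for phlda2 and 29.0 points for ace. Against c1 and c3 pooled, phlda2 differed by 1.96 in mean and by 31.0 points in share. Scaling shares by genes detected gave 44.0 points for phlda2, 35.7 for socs3a and 41.6 for ace. The percent of genes at least 1 higher in c5 than in c3, 1.07% in the report, was 3.23% among genes in at least 25% of cells, 0.0989% among all genes with a value, 4.95% at a difference of 0.5 and 0.586% against c1. With means in place of shares, 2 of the 5 genes most like phlda2, 3 of those most like socs3a and 2 of those most like ace were the same. Wilson intervals moved each lower bound in c5 by under 1 point. No paired analysis was possible because the table pools the libraries and the result comes from no test, and for the same reason no library could be left out. A share in c5 rests on 72 cells, so its interval spans over 20 points for each of the 3 genes.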

Other observations

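Some genes past the same size in c5 were not on the list of early response genes. Whether they respond early as well was not tested. igfbp1a, which encodes a binding protein of insulin-like growth factors, averaged 1.55 in c5 against 0.31 in c3, with shares of 40.3% in c5 and 13.1% in c3. aqp1a.1, a water channel gene, had means of 1.59 in c5, 1.00 in c1 and 0.38 in c3. The stress-related cirbpb, a cold-inducible RNA-binding protein gene, had means of 2.29 in c5, 1.61 in c1 and 1.17 in c3.

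Genes that lie beside phlda2 and ace in the zebrafish assembly GRCz12tu were found in few cells of c5, as most genes were. The genes directly beside socs3a were not analysed here. Beside phlda2 are osbpl5, with shares of 5.56% in c5 and 9.84% in c3, and nap1l4a, with shares of 6.94% in c5 and 2.46% in c3. itga3b, the only gene that overlaps ace in that assembly, was found in 4.17% of c5 cells and 4.10% of c3 cells, with means of 0.029 in c5 and 0.032 in c3. Measured too were 8 zebrafish relatives of genes that neighbour PHLDA2 in mammals or share its imprinted region. Of these, 0 differed between c5 and c3 by 1 or more, and the median difference was 0.031. Over all genes with a value, 0.0989% were higher in c5 by that much and 0.0625% lower. A count of 0 in 8 genes is near that background.

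The spread of ace over expressing cells was 0.99 in c5 and 1.36 in c3 (SD), where the median SD over genes in at least 10% of cells was 1.204 in c5 and 1.214 in c3. For phlda2 it was 1.34 in c5, 1.72 in c1 and 1.53 in c3.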
